A study of Mus musculus with 14 samples.

Results

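The cholinergic marker genes of spinal motoneurons (MNs) were followed through 12 NOVA CLIP libraries and 2 RNA-seq libraries of mouse spinal cord. The set was chosen by gene symbol and held 10 of the 19215 genes listed in the RNA-seq tables, namely Chat, Slc18a3, Slc5a7, Ache, Isl1, Isl2, Esrrg, Chodl, Mmp9 and Calca, and 4 of the 13189 cassette exons listed there belonged to these genes. HITS-CLIP uses ultraviolet light to crosslink an RNA-binding protein to the RNA it touches in the tissue, and then sequences the short RNA pieces that come down with the protein. In 8 libraries the protein was an AcGFP-tagged NOVA2 expressed from the Chat promoter in hemizygous BAC transgenic mice on C57BL/6, taken from pooled spinal cords with antibodies to GFP, with 4 libraries from line 6 and 4 from line 17. The 4 whole spinal cord (WSC) libraries came from wild-type C57BL/6 mice and anti-NOVA sera. All CLIP mice were 3 months old. The 2 RNA-seq libraries came from a male and a female spinal cord at 12 weeks on a B6/SJL background, and both mice carried the human wild-type SOD1 transgene Tg(SOD1)2Gur/J. The comparison of MN with WSC therefore also compared tagged NOVA2 with endogenous NOVA, antibodies to GFP with antisera, and pooled cords with the cord of 1 mouse per library, and these cannot be told apart. The Chat promoter is active in every cholinergic cell of the cord and not in motoneurons alone, and in such bulk samples fewer cells of a type and less RNA per cell cannot be told apart.

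Motoneurons signal to muscle with acetylcholine. Choline acetyltransferase, encoded by Chat, makes the transmitter, the vesicular transporter encoded by Slc18a3 loads it into synaptic vesicles, the choline transporter encoded by Slc5a7 brings choline back into the terminal, and acetylcholinesterase, encoded by Ache, breaks the transmitter down in the cleft. Isl1 and Isl2 encode LIM homeodomain factors that specify motoneurons. Esrrg encodes an orphan nuclear receptor used as a marker of gamma motoneurons, while Chodl and Mmp9 mark fast alpha motoneurons and Calca encodes the neuropeptide CGRP, which motoneurons share with many sensory ganglion neurons. NOVA proteins bind RNA through KH domains that recognise the 4-base motif YCAY, where Y is C or T, usually in clusters, and they act on splicing and on the ends of transcripts.

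The places where NOVA reads piled up highest were mostly at the ends of the transcripts. In 7 of the 9 genes with at least 20 CLIP reads, the position of highest coverage, with libraries scaled to equal depth, lay in the 3′ UTR, compared with 38.4% of all 12957 genes with that many reads. In the 51 bases centred on the position, 8 of the 9 genes held a NOVA motif on the sense strand, against 86.1% of all genes and 54.5% of windows of that length placed 500 bases away. The sequences below lie under the highest coverage of these genes, with Calca and Mmp9 left out. Each is 29 bases of the mm9 genome in the sense of the gene, 5′ to 3′, with every NOVA motif (TCAT, or TCAC, or CCAT, or CCAC) in capitals. In windows of this length 7 of the 9 genes held a motif, against 74.4% of all gene sites and 35.5% of the windows 500 bases away. The windows of Ache and of Calca, which is not shown, held none.
Chat, 3′ UTR, chr14:33221515-33221543, minus strand: tTCATttagaatacagtggcCCACatcca
Slc18a3, exon, chr14:33276738-33276766, minus strand: tCCATcgccTCATgctagacccttacatc
Slc5a7, 3′ UTR, chr17:54414593-54414621, minus strand: aaacaccTCACcaagaaactggaaaacaa
Isl1, 3′ UTR, chr13:117089303-117089331, minus strand: ctcaaaaaatgcgcgtttTCATtTCACtg
Chodl, 3′ UTR, chr16:78950738-78950766, plus strand: caatgtaaggaatggcaTCATCACcttgg
Esrrg, 3′ UTR, chr1:190035204-190035232, plus strand: tactttatcCCACgatcctctggCCACat
Ache, exon, chr5:137730056-137730084, plus strand: ctctctctctctctctctctctctgactc

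The MN and the WSC libraries put their highest position at nearly the same base in 4 genes. Taken separately, the positions were 3 bases apart in Chat, 1 base apart in Slc5a7, 7 bases apart in Chodl and 11 bases apart in Isl1. In Chat 106 MN reads and 125 WSC reads lay over the site shown, in Slc5a7 277 and 875, and in Chodl 91 and 239, with all 8 MN libraries represented in each. The Isl1 site rested on 4 MN reads from 3 libraries and 12 WSC reads. The positions of the other 5 genes lay further apart. In Slc18a3 they were 794 bases apart, in Esrrg 1236 and in Ache 5572, and the Mmp9 and Calca sites rested on 5 and 15 reads in all. The Slc18a3 site shown held 27 MN and 56 WSC reads. The Esrrg site held 15 MN and 79 WSC reads, of 987 and 7429 in the gene. Of the 9, the Ache site was the only one without any motif in 51 bases, in a run of alternating C and T, and 0 WSC reads lay over it.

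The MN libraries held 65961 to 871804 CLIP reads and the WSC libraries 2213104 to 6095995, and the reads of a gene are given below as RPM, its reads divided by all deposited reads of the library and scaled to the same depth. A count of 0 allows up to 3 reads, which is 3.44 to 45.5 RPM in an MN library and 0.492 to 1.36 RPM in a WSC library. Of the reads on genes, 35.5% to 47.8% were exonic in MN and 61.1% to 66.2% in WSC. Replicate 1 of both lines had a median read length of 31 bases. In the markers of other cells, all 7 inhibitory interneuron genes fell in MN at the false discovery rate (FDR) of 0.01 used below. So did 5 of 5 astrocyte genes, 2 of 5 oligodendrocyte genes and 2 of the 4 tested excitatory interneuron genes, where 20.6% of all 12957 tested genes were lower. The 4 tested microglia genes lay between -1.75 and -0.85 on the log2 scale without passing (FDR = 0.0232 to 0.410). P2rx3, the 1 tested gene of 8 sensory ganglion markers, stood at -0.25 (FDR = 0.737). Among Schwann cell genes, Pmp22 rose by 1.62 (FDR = 1.65e-16), while Prx, which is more particular to these cells, had 1 read. The 6 neutrophil and 4 muscle genes had 0 to 7 reads each and were not tested. What part these other cells have in the results was not tested. The largest drops in these lists were in Slc6a5, the glycine transporter of inhibitory terminals (log2 fold change -4.53), Slc32a1 (-4.47) and the vesicular glutamate transporter Slc17a6 (-3.84).

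The first comparison asked which of the marker genes carried more NOVA reads in MN than in WSC. In 6 of the 9 tested genes the reads were higher in MN at a false discovery rate (FDR) of 0.01, and none of the 9 had a negative fold change, while 9.79% of all 12957 genes were higher and 20.6% lower (edgeR quasi-likelihood test on counts per gene). The 6 were Chat, Chodl, Calca, Slc5a7, Isl1 and Slc18a3. Ache, Mmp9 and Esrrg did not pass, and Isl2 had 8 reads in all and was not tested. The median log2 fold change of the 9 was 1.74, and that of all genes was -0.28. With DESeq2, which changes both scaling and test, the median of all genes was -0.05 and 1356 genes were higher and 1797 lower, against 1269 and 2672 with edgeR, and with edgeR without TMM scaling the median was -0.21 and the counts 1477 and 2401. In both, 6 of the 9 marker genes were higher, but with DESeq2 Esrrg passed (FDR = 0.00532) and Isl1 did not (FDR = 0.0169). The members were proposed with results of these data known, so their direction is not independent evidence.

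**Figure D1:**
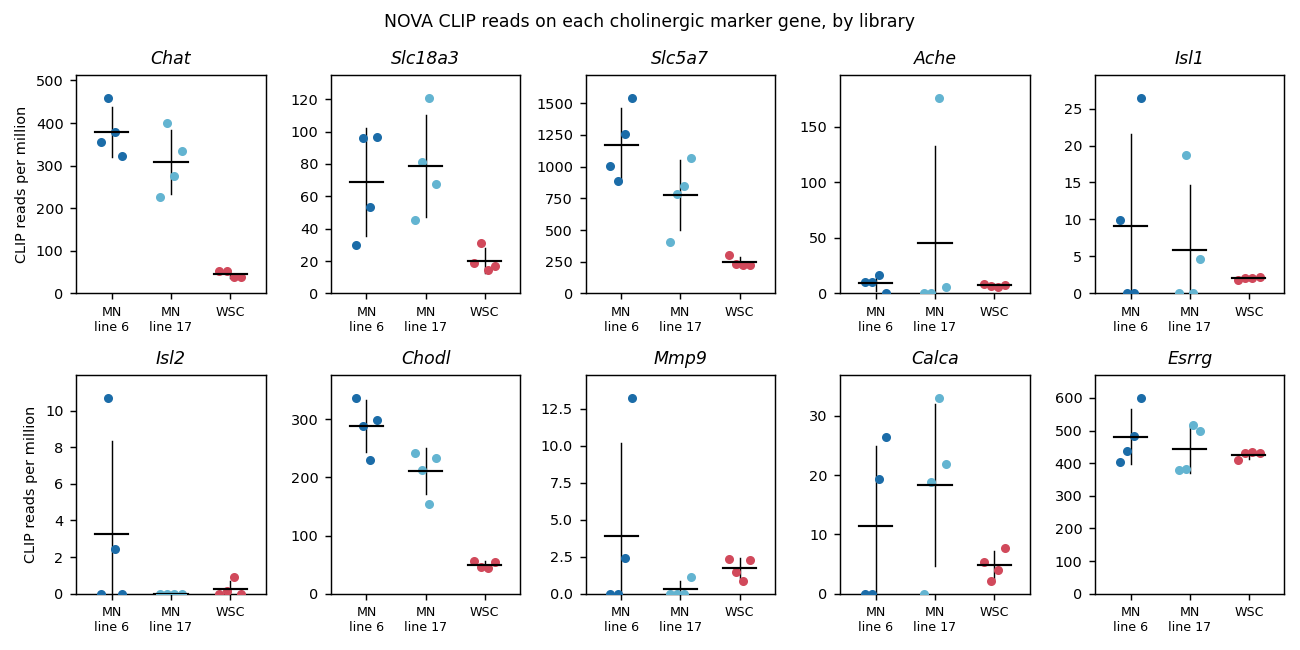
NOVA CLIP reads on each of the 10 genes in RPM, 1 point per library, for MN line 6, MN line 17 and WSC (4 libraries each). Horizontal bars are means and vertical bars 1 SD, cut at 0. The MN and WSC points do not overlap for Chat, Slc5a7 and Chodl, and in Ache a single line 17 library stands at 176.

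Chat, the gene for the enzyme that makes acetylcholine, had the largest change of the 9 genes. Its RPM values were 356, 459, 380 and 322 in replicates 1 to 4 of line 6, and 227, 400, 275 and 334.9 in those of line 17. In WSC they were 52.7, 53.6, 38.9 and 37.5. Every MN library lay above every WSC library, and the log2 fold change was 2.90 (SE 0.131, FDR = 1.78e-39), which is 7.45-fold with a 95% interval of 6.24 to 8.91 from the SE. These counts include the reads of Slc18a3, which lies within the span of Chat on the same strand (mm9 chr14:33221389-33279095 for Chat, chr14:33275623-33278036 for Slc18a3, both minus), so that 515 of the 1514 reads in Chat were counted for both genes. When reads in overlapping genes were left out, Chat rose by 3.43 on the log2 scale (FDR = 1.37e-47). The transgene is a BAC of the Chat locus with the tagged Nova2 inserted behind the Chat promoter, and reads from its RNA and from the RNA of the mouse's own gene cannot be told apart.

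Slc18a3, the vesicular acetylcholine transporter, had 29.7, 96.1, 53.3 and 96.9 RPM in line 6. In line 17 it had 45.5, 81.3, 121 and 67.7, and in WSC 18.9, 31.3, 14.3 and 16.7. The groups overlapped through replicate 1 of line 6, which held 3 reads and stood below the highest WSC library, while the other 7 MN libraries lay above all WSC libraries. The log2 fold change was 1.73 (SE 0.209, FDR = 6.72e-12). Because the gene lies inside Chat, reads of unspliced Chat RNA that cross it cannot be told apart from its own, and all its reads were also reads in Chat. Whether the BAC of the Chat locus also carries Slc18a3 was not tested, and reads from such a copy could not be told apart either.

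Slc5a7, the high-affinity choline transporter, held 2217 reads in MN and 4210 in WSC. Its RPM values were 1008, 886, 1254 and 1542 in line 6 and 409, 788, 846 and 1071 in line 17. In WSC they were 302, 232, 226 and 224. The lowest MN library lay above the highest WSC library, and the log2 fold change was 2.00 (SE 0.141, FDR = 1.40e-24). The gene lies at chr17:54412919-54438359 on the minus strand.

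Ache, which encodes acetylcholinesterase, did not pass the test (log2 fold change 0.98, SE 0.452, FDR = 0.0699), and its MN reads came from few libraries. Line 6 had 1, 1, 7 and 0 reads and line 17 had 0, 0, 16 and 5, while WSC had 30, 42, 34 and 17. All 16 reads of replicate 3 of line 17 and 4 of the 7 reads of replicate 3 of line 6 lay over the run of alternating C and T shown above, at 16 different places in the former. Without the reads over that site, an alternative chosen after seeing the data, the log2 fold change was -0.51 (SE 0.482, FDR = 0.406). Leaving out replicate 3 of line 17 gave -0.03 (FDR = 0.962), whereas leaving out replicate 4 of line 17 gave 1.63 and a call (FDR = 0.000648).

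Among the transcription factors, Isl1 passed the test on 50 reads in all. MN line 6 held 1, 0, 0 and 6 reads and line 17 held 0, 3, 0 and 4, and the WSC libraries held 6, 13, 12 and 5, or 1.77 to 2.26 RPM. Of the 8 MN libraries 4 had no read, so the groups overlapped, and the log2 fold change was 1.74 (SE 0.536, FDR = 0.00555). The call rested on single libraries, because without replicate 4 of line 6 the log2 fold change was 0.57 (FDR = 0.635), without replicate 2 of line 17 it was 1.42 (FDR = 0.0477) and without replicate 4 of line 17 it was 2.00 (FDR = 0.0171). DESeq2 gave 2.01 (FDR = 0.0169), the replicate number as a block 1.52 (FDR = 0.0434) and the libraries with the long 5′ barcode alone 1.59 (FDR = 0.0403). Isl2 had 2 reads in the 8 MN libraries and 6 in the 4 WSC libraries, and at this depth no difference was detectable.

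Esrrg, the gamma motoneuron marker, held 8416 reads and differed little between MN and WSC. Its RPM values were 405, 438, 484 and 599 in line 6 and 379, 382, 516 and 500 in line 17. The WSC libraries, at 409, 431, 436 and 430, lay within the MN range. The log2 fold change was 0.13 (SE 0.119, FDR = 0.401), which bounds the ratio of MN to WSC between 0.930 and 1.28.

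Chodl, Calca and Mmp9 differed among themselves. Chodl, a C-type lectin-like membrane protein, had 336, 288, 230 and 299.5 RPM in line 6 and 243, 213, 154 and 234 in line 17, and 56.0, 45.6, 44.1 and 54.2 in WSC. No MN library overlapped the WSC range, and the log2 fold change was 2.30 (SE 0.133, FDR = 1.50e-30). Calca, the CGRP gene, had 0, 0, 8 and 6 reads in line 6 and 0, 3, 3 and 19 in line 17, against 18, 13, 23 and 17 in WSC, with a log2 fold change of 2.13 (SE 0.382, FDR = 1.72e-06). The 5 MN libraries with any Calca read lay above all WSC libraries, and the other 3, which were 3 of the 4 shallowest MN libraries, had none. Mmp9, a matrix metalloproteinase that neutrophils also make, had 5 reads in MN and 27 in WSC, and its log2 fold change of 0.35 (SE 0.901, FDR = 0.783) left the ratio between 0.375 and 4.33.

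**Figure D2:**
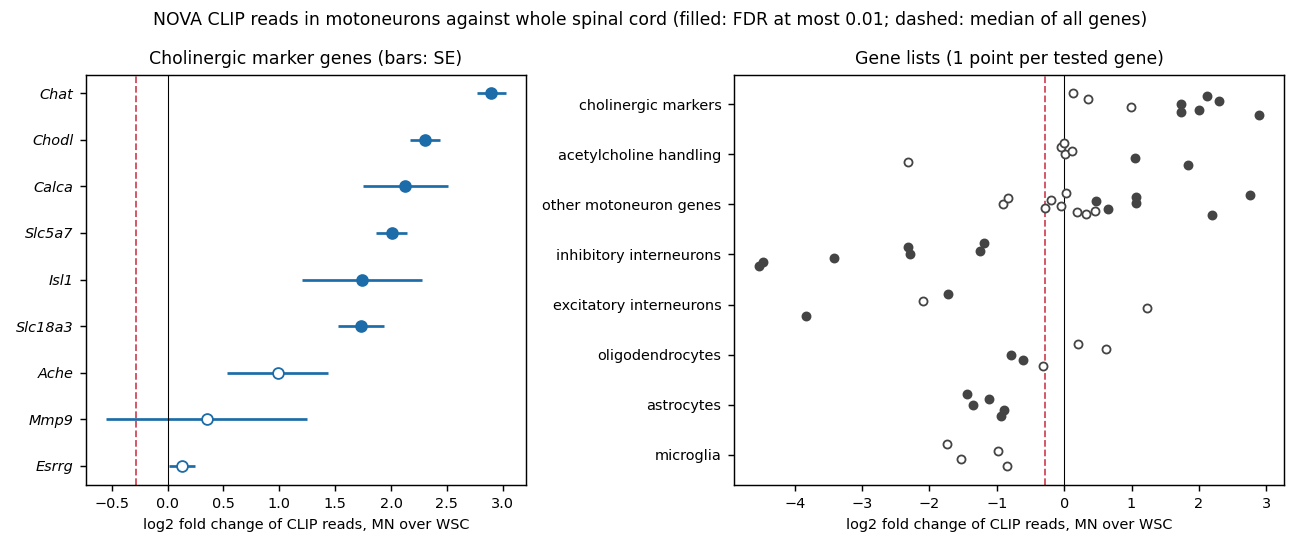
Left, log2 fold change of CLIP reads (MN over WSC) with its SE for the 9 tested genes. Right, the same quantity for each tested gene of the cholinergic set and of 7 other gene lists. Filled points passed an FDR of 0.01 and the dashed line marks the median of all genes, -0.28. All inhibitory interneuron and astrocyte genes lie left of 0, and 6 of the 9 cholinergic genes lie right of 1.7.

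For the 2 lists that follow, the share of all 12957 tested genes was 9.79% higher in MN and 20.6% lower. Of 7 other genes of acetylcholine handling, 2 were higher in MN and 0 lower, with a median log2 fold change of 0.01. The 2 were Slc10a4, a vesicular protein of cholinergic and monoaminergic neurons (1.83, FDR = 4.24e-15), and Prima1, the membrane anchor of acetylcholinesterase (1.05, FDR = 7.89e-08). Acly, which makes acetyl-CoA, stood at 0.11 (FDR = 0.555) and the choline transporter-like genes Slc44a1 and Slc44a2 at -0.04 and -0.01 (FDR = 0.8288 and 0.993). Of 19 other motoneuron genes, 15 were tested, 6 were higher, 0 lower and 9 not called, with a median of 0.32. Vipr2, a receptor for the peptides VIP and PACAP, rose by 2.77 on the log2 scale (FDR = 7.95e-16), Lhx4, a LIM homeodomain factor of motoneuron progenitors, by 2.19 (FDR = 3.24e-06), Sv2b, a synaptic vesicle protein, by 1.07 (FDR = 2.65e-12), and Gfra1, a receptor for GDNF, by 1.07 (FDR = 1.06e-10). The neurofilament genes Nefl and Nefm, with the highest RNA levels of that list, stood at -0.05 and -0.29 (FDR = 0.797 and 0.0675), whereas Nefh rose by 0.65 (FDR = 0.000617).

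Between line 6 and line 17 none of the 9 genes passed the edgeR test, where 0.00772% of all genes, 1 of 12957, did. Slc5a7 had the smallest edgeR p among them (log2 difference 0.52, SE 0.167, FDR = 0.686) and was the only one under an unadjusted 0.05. DESeq2 also called 0 of the 9. Without replicate 4 of line 17, the deepest MN library, the Slc5a7 difference was 0.85 and passed (FDR = 0.000387).

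A further comparison asked where within a gene the reads lay, independent of how many there were. The exonic share of reads was lower in MN than in WSC in 2 of 6 testable genes, Slc5a7 and Esrrg (exact two-sided permutation test over libraries, adjusted over 5256 genes at 0.05), in a setting where 33.3% of all genes passed and 33.1% of all genes passed with a lower share in MN. The share fell in 92.3% of all genes, with a median of -15.1 percentage points, so the direction was that of the libraries as a whole. In Esrrg the exonic share was 43.9%, 26.8%, 28.5% and 47.8% in line 6, 40%, 36.1%, 42.6% and 33.7% in line 17 and, in WSC, 58.1%, 54.8%, 54.8% and 52.4%, with no overlap, and the means differed by -17.6 points (exact permutation p = 0.00404, adjusted p = 0.0251). In Slc5a7 the means were 94.3% ± 3.02 (SD, n = 8) and 99.4% ± 0.340 (SD, n = 4), again without overlap (exact permutation p = 0.00404, adjusted p = 0.0251). With 8 against 4 libraries 0.00404 is the smallest p the test allows. Chodl, at 94.0% and 98.0%, did not pass (exact permutation p = 0.0404, adjusted p = 0.0878), nor did Calca or Ache.

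The result for Chat depended on whether the reads of Slc18a3 were set aside. With those reads counted as intronic, the exonic share was 42.0% ± 7.41 in MN (SD, n = 8) and 50.6% ± 9.94 in WSC (SD, n = 4; exact permutation p = 0.125, adjusted p = 0.186). Without them, an alternative chosen after seeing the data, it was 48.5%, 64.7%, 58.5% and 62.7% in line 6 and 50%, 47.1%, 50% and 51.1% in line 17, and 93.9%, 89.7%, 87.8% and 89.1% in WSC. Every MN library lay below every WSC library, and the difference was -36.1 points (exact permutation p = 0.00404, adjusted p = 0.0251). The median of -15.1 points over all genes is not a like measure, because reads in overlapping genes were kept there. With its overlapping reads kept, Chat differed by -8.62 points.

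**Figure D3:**
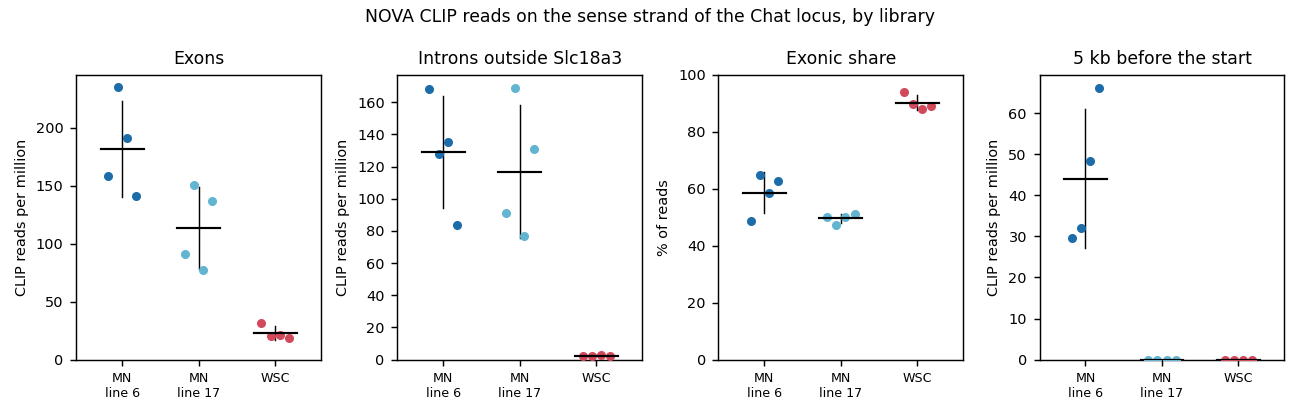
CLIP reads on the sense strand of the Chat locus by library for MN line 6, MN line 17 and WSC, with RPM in exons, RPM in introns outside Slc18a3, the exonic share in %, and RPM in the 5 kb before the gene start. Points are libraries, horizontal bars means, vertical bars 1 SD. Intronic reads lie between 76.9 and 169 RPM in MN and between 2.06 and 3.01 in WSC, and the last panel has reads in line 6 alone.

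Both kinds of Chat read were more frequent in MN, but to different extents. Exonic reads were 147 ± 50.7 RPM in MN (SD, n = 8) and 23.0 ± 6.02 in WSC (SD, n = 4), a ratio of 6.41. Intronic reads outside Slc18a3 were 123 ± 36.0 RPM in MN (SD, n = 8) and 2.41 ± 0.414 RPM in WSC (SD, n = 4), a ratio of 51.04, from 258 and 43 reads. The intronic position of highest MN coverage lay 40.1 kb into the gene and 313 bases from the nearest exon. It held 34 reads in 6 of 8 MN libraries and 3 reads in 3 of 4 WSC libraries. The position was chosen after seeing the data and by MN reads alone, which favours MN there, so these counts are no test of a difference. The site is shown because it holds 3 motifs within 29 bases, 2 of them overlapping.
Chat, intron, chr14:33238978-33239006, minus strand: aatgCCACCACactcTCACagtgactata
The corresponding intronic positions of the other genes held at most 6 MN reads. Among whole genes, edgeR on intronic reads alone gave log2 fold changes of 4.24 for Slc5a7 (SE 0.309, FDR = 6.75e-40) and 3.25 for Chodl (SE 0.450, FDR = 2.24e-11). The value for Esrrg was -0.16 (SE 0.116, FDR = 0.384). These fits scaled each library to its intronic reads, a larger share in MN, unlike the RPM ratio of Chat. For Esrrg they show no rise relative to the intronic reads of other genes, which does not mean that its intronic RPM was equal.

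**Figure D4:**
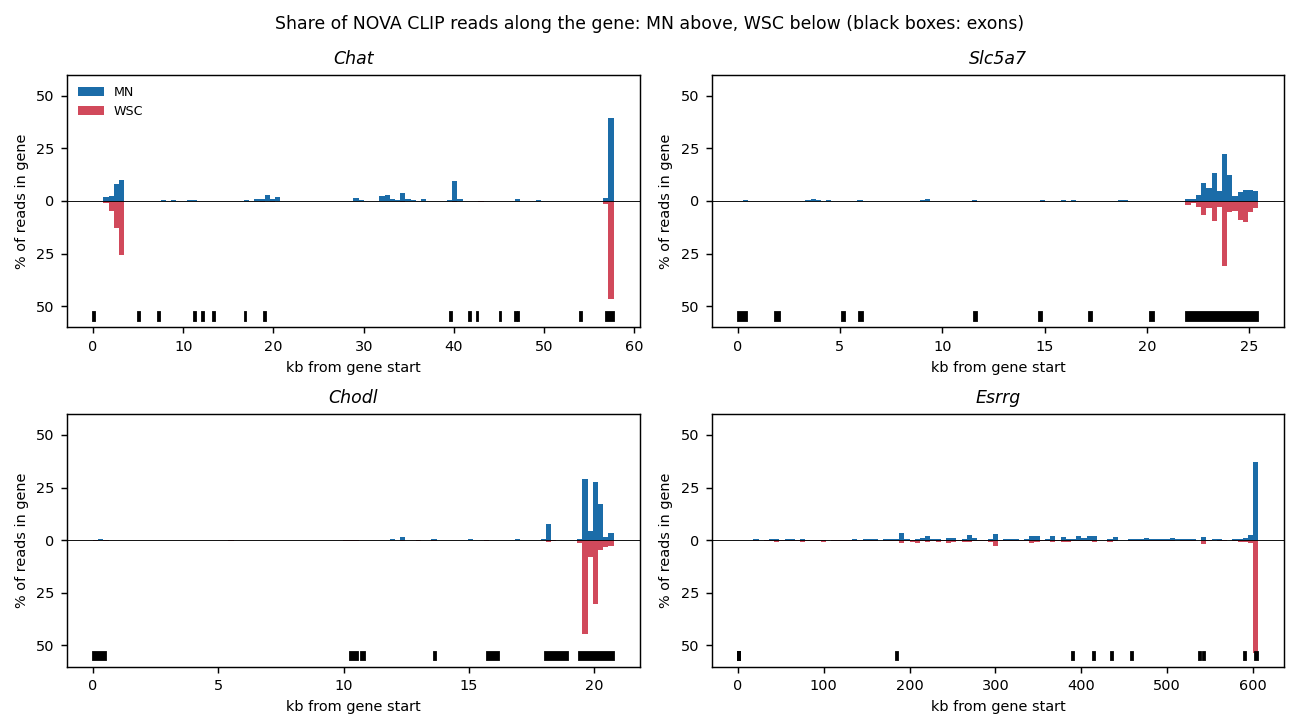
Share of a gene's CLIP reads in 100 equal bins from the gene start, MN above the line and WSC below, averaged over libraries after scaling to RPM, with exons as black boxes. In all 4 genes the last exon holds the tallest bar in both groups, the bars near 3 kb in Chat are Slc18a3, and the MN bar at 40 kb in Chat has hardly a counterpart in WSC.

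Over the 12 CLIP libraries, the genes whose scaled log2 reads ran most like those of Chat were Slit3, a secreted axon guidance ligand (Pearson r = 0.992), Dab1, the adaptor of reelin signalling (0.984), the nuclear noncoding RNA Malat1 (0.984), the transcription factor Creb5 (0.981) and the metalloproteinase Pappa (0.977). The points fall into an MN and a WSC cluster, so these values mostly describe the step between them. Within the 8 MN libraries r was 0.881, 0.940, 0.889, 0.803 and 0.728 in that order, and within the 4 WSC libraries it was 0.639, -0.235, -0.761, 0.205 and -0.295. The genes were chosen by r over all 12 libraries, so the values within each group are not independent of that choice.

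In the RNA of whole spinal cord, Ache, Calca and Slc5a7 were the most abundant of the 10 genes and Isl1 the least. RPKM is the number of reads per kilobase of exon at a common depth, so it can be compared between genes. In the male and the female library, Ache had 45.0 and 40.7, Calca 26.7 and 55.5, and Slc5a7 27.99 and 46.9. Slc18a3 had 24.0 and 28.2, Chodl 21.3 and 28.1, and Esrrg 21.6 and 25.5. Neighbours in this order overlapped in their 2 values down to Esrrg. Chat followed at 9.20 and 10.4, Mmp9 at 4.84 and 5.01, Isl2 at 1.43 and 1.66 and Isl1 at 0.647 and 0.663, each apart from the gene before it. Chat and Slc18a3, which share a locus, thus differed in mean RPKM, 9.79 ± 0.8286 and 26.1 ± 2.98 (SD, n = 2). The size of this difference depends on the exon length used for Chat, 4623 bases here and 2810 in the annotation used for the CLIP reads. By mean RPKM the genes stood between percentile 35.1 (Isl1) and 91.7 (Ache) of all 19215.

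**Figure D5:**
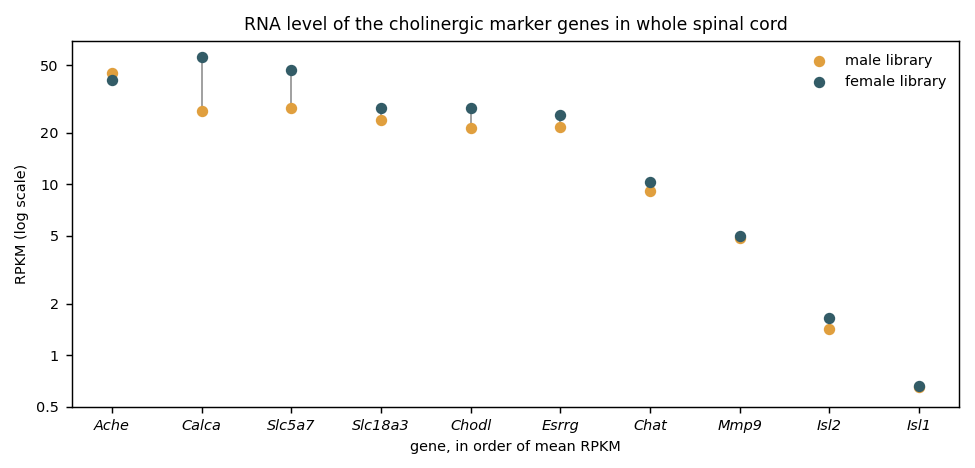
RPKM on a log scale for the 10 genes in the male and the female RNA-seq library of whole spinal cord, in order of mean RPKM, 1 point per library. The 2 points lie far apart for Calca and Slc5a7 and close together for Isl1, Mmp9 and Chat.

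The 2 RNA libraries differed by more than 1.5-fold in 2 of the 10 genes, and both were higher in the female library. Where the mean RPKM was 1 or more, 1.38% of genes were higher in the female library by that factor and 3.49% differed in either direction, or 8.45% of all genes listed. Calca was 2.08-fold higher and Slc5a7 1.68-fold higher in the female library (log2 difference 1.05 and 0.74 on RPKM + 0.1), while Chat and Slc18a3 were 1.13-fold and 1.18-fold higher. With 1 library per sex, there was no replicate check, and sex and library cannot be told apart. Sensory ganglion neurons also express Calca, and the 8 markers of those neurons summed to 1.27 RPKM in the male and 1.48 in the female library, with Scn11a and Mrgprd listed at 0 in the male and Trpv1 at 0 in the female. None of those 8 markers reached a mean RPKM of 1, and with 0.1 RPKM added none differed by more than 1.5-fold. Of 18 other motoneuron genes found in the RNA data, 2 were higher in the female library by that factor and 0 in the male. They were Mnx1, at 2.05-fold, and Spp1, which encodes osteopontin, at 1.63-fold. The median log2 difference of that list was 0.14.

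Set beside the RNA level, the NOVA reads of whole cord were spread unevenly over the markers. The exonic CLIP reads of WSC, as RPKM, divided by mean RPKM had a median of 0.182 over 10997 genes matched by symbol. The ratio was 1.61 for Esrrg (percentile 95.6), 1.26 for Slc5a7 (93.0), 0.836 for Chat (86.1), 0.519 for Chodl (76.1) and 0.323 for Slc18a3 (64.5). Among the 9 genes it was lowest for Ache, 0.0350 (percentile 18.2), followed by Calca, 0.0620, Isl2, 0.0644, and Mmp9 at percentile 36.5. The exon lengths of the 2 assays came from different annotations, 2810 and 4623 bases for Chat and 3820 and 2922 for Chodl. With the length of the RNA tables for both, an alternative chosen after seeing the data, Chat stood at 0.508 (percentile 71.8) and Chodl at 0.678 (78.9), so the order of these genes turned, while Esrrg and Slc5a7 remained highest and Ache lowest of the 9. The mice of the 2 assays differed in strain and genotype, so the ratio is a description across experiments.

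Cassette exons were listed for Chat and Esrrg. The 3 Chat events concerned the same noncoding exon of 189 bases (chr14:33273911-33274099), each with a different exon before it. The junction into the following exon, which the 3 events share, had 37 reads in the male and 24 in the female library. The inclusion junctions from the 3 preceding exons had only 0, 4 and 2 reads in the male library and 0, 11 and 0 in the female, with 4, 3 and 0 and 2, 1 and 0 reads for skipping. Most inclusion junction reads therefore came from the shared junction, so inclusion from each preceding exon cannot be read from these counts and no inclusion level is given. None of the 3 events passed Fisher's exact test between the 2 libraries (lowest p = 0.636, FDR = 1), where 4.26% of 9396 exons did, and 0 were under an unadjusted 0.05. The inclusion counts in that test were mostly reads within the exon, 123 in the male and 92 in the female library, which the 3 events also share. The Esrrg exon (chr1:189846241-189846362, 122 bases) had 2 and 7 skipping reads and no inclusion junction, too few to test.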

How the data were processed

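Groups were taken from the sample labels, and no column was left unmapped. The authors mapped CLIP reads to mm9 with Novoalign, per the labels, collapsed duplicates and deposited one BED line per unique read, so a gene's count is a number of deposited reads. The score that the authors deposited with each read was not used. The labels of 1 library, replicate 2 of line 6, also name mm10, and it was read as mm9. No deposited read passed an mm9 chromosome end, but that alone cannot tell the builds apart. On mm9 genes 39.7% of its reads were exonic, within the 35.5% to 47.8% of the MN libraries. The authors' RNA-seq tables (OLego and Quantas, mm9, reads trimmed to 74 bases) hold deposited counts, RPKM and junction counts. RNA-seq reads totalled 72006019 and 65625173 on genes.

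Deposited reads were counted by midpoint on the sense strand of GENCODE vM1 genes, with Slc18a3, absent from that annotation, placed by an exact match of its RefSeq promoter. Genes with at least 20 reads over 12 libraries were tested with edgeR 4.0.16 (TMM, quasi-likelihood, Benjamini-Hochberg FDR of 0.01), as the mean of both lines minus WSC. DESeq2 1.42.0 was an alternative. RPM uses all deposited reads of a library. Exonic shares needed 5 reads per library, in at least 3 libraries a side. Exons needed 10 junction reads in each library (FDR of 0.1). The RNA fold was 1.5 with a pseudocount of 0.1 RPKM. CLIP libraries were biological replicates, from pooled transgenic cords or 1 wild-type cord each. The tests were checked on simulated data.

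All 10 members were named, with, from each other list, up to 4 genes past the FDR by fold and up to 3 by RPKM, and the 5 most like Chat. Members and lists were chosen with earlier results of these data known. A gene of a marker list is not reported here.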

Additional observations from a re-analysis of the deposited data

Results flagged for a closer look

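Reads outside any annotated gene were not part of the comparisons above. In the 5 kb before the start of Chat, on its strand, the 4 libraries of line 6 held 3, 3, 20 and 15 reads, 41 in all, or 44.0 ± 16.9 RPM (SD, n = 4). The libraries of line 17 and of WSC held 0 reads there, which allows up to 2.52 RPM over line 17 and 0.173 RPM over WSC. The reads had 36 different midpoints between 1941 and 4026 bases before the start (exact two-sided permutation test, line 6 against line 17, p = 0.0286, the smallest that 4 against 4 libraries allow). The window was chosen after the data were seen. The same window before the other genes, Slc18a3 apart, whose window lies over this one, held at most 5 reads over all 12 libraries. Whether these reads come from the inserted BAC was not tested. On the opposite strand, the noncoding RNA Gm2990, which starts within Chat and runs away from it, was also higher in MN (log2 fold change 4.196, FDR = 5.22e-24), with no difference between the lines called (FDR = 1), and Ercc6, the next annotated gene beyond it, was at 0.48 (FDR = 0.0340).

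In 3 of 52 groups of 4 libraries 1 library stood far from the others, where chance alone gives about 1 in 20. Replicate 1 of WSC had 302 Slc5a7 RPM against 224 to 232 in the other 3. Replicate 3 of line 17 had 176 Ache RPM against 0 to 5.74, all over the site of alternating C and T. Replicate 4 of line 17 had 1.15 Mmp9 RPM, a single read, against 0 in the other 3.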

How the results depend on the processing

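Of the 9 tested genes, Chat, Slc18a3, Slc5a7 and Chodl were higher in MN in every alternative that tested them, with Chat between 2.25 and 3.43 on the log2 scale. Calca missed the FDR with intronic reads alone (0.0534). The count of 6 stood at 3 of 5 with intronic reads only, at 7 with exonic reads only, where Ache passed, and at 5 to 6 when a library was left out. Same-numbered libraries were not treated as paired. Their deviations from the group means correlated at -0.19 to 0.09 between MN and WSC libraries. Between the lines they correlated at 0.0716 to 0.247, against -0.2355 to 0.1771 for libraries of different number. Replicates 1 and 2 of both lines also lack the long barcode, and whether same-numbered libraries of the lines shared a batch was not tested. With the replicate number as a block 5 of 9 were higher, Isl1 not. Esrrg passed with DESeq2 (0.26, FDR = 0.00532) and with edgeR's own filter (0.33, FDR = 0.00431). Over all genes, 1269 higher became 816 with the block, 730 without replicate 4 of line 17, 547 with exonic and 319 with intronic reads, and 2672 lower became 1387 with edgeR's own filter, 1613 with exonic and 845 with intronic reads, and 1664 with line 17 alone. Between lines the count was 0 to 1 when a library was left out, and without replicate 4 of line 17 23 genes in all were called, 8 higher and 15 lower. For exonic shares, leaving out a library gave 0 to 3 genes, the 0 whenever a WSC library was left out, because the smallest p was then 0.0121. Highest positions moved by over 25 bases in 5 of 9 genes when raw reads were summed, and 6 of 9 then held a motif. The 5 were Slc18a3, Ache, Mmp9, Calca and Esrrg. With a pseudocount of 1, 226 rather than 1623 of all genes passed 1.5-fold, with 2 of the 10 markers in both. Isl1, Isl2, Mmp9, Ache and Calca are limited by their few reads.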
